A study of Homo sapiens with 6 samples.

Results

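The genes described here code for the proteins that attach chromosomes to the mitotic spindle, watch over those attachments and build the spindle. They are 55 genes listed by known function, and 53 of them were measured among the 17687 genes of this array series. CENPP and PMF1 were not analysed here, because no probe set carries either symbol in the platform's gene table. The study asked how a collagen surrounding changes the transcriptome of Jurkat, an established line of human T cell acute lymphoblastic leukaemia. In the 3D group, the cells were mixed into bovine type I collagen at 1.7 mg/mL, the gel set for 1 h, and medium was added for another 2 h. In the suspension group, the same line was kept in medium for 3 h. Each group had 3 arrays, numbered 1 to 3 as biological replicates in the labels, which do not say what separated the numbers, so p-values measure the spread between these samples only.

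Chromosome segregation starts at the centromere, where nucleosomes with the histone variant CENP-A carry a set of proteins called the constitutive centromere-associated network (CCAN). In mitosis the CCAN recruits the outer kinetochore, whose KNL1, MIS12 and NDC80 complexes bind microtubules. Kinetochores that lack microtubules activate the spindle checkpoint, which holds back the anaphase-promoting complex until all chromosomes are attached. Many of these genes are transcribed in the G2 and M phases, so in a growing line such as Jurkat their messenger RNA level in bulk depends on how many cells are in those phases as well as on RNA per cell. These 2 sources cannot be told apart in bulk RNA, which applies to every level below.

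Promoters of such genes often hold a CHR element, which binds the MuvB complexes that repress in quiescence and activate in mitosis, next to CCAAT boxes, which bind NF-Y. The 3 promoters below belong to spindle assembly genes and are shown as examples of that layout. They were picked for the widest spreads between replicate numbers among the listed genes whose promoters hold both CHR and CCAAT letters. Each runs from 250 bases before to 20 bases after the RefSeq start (build GRCh38.p14), on the gene's own strand. Capitals mark the CHR letters TTTGAA or TTTAAA and the letters CCAAT on either strand, so that TTCAAA and ATTGG are marked too. HMMR lies on the plus strand at chr5:163460382-163460651, ASPM on the minus strand at chr1:197146650-197146919 and DLGAP5 on the minus strand at chr14:55191566-55191835.
HMMR: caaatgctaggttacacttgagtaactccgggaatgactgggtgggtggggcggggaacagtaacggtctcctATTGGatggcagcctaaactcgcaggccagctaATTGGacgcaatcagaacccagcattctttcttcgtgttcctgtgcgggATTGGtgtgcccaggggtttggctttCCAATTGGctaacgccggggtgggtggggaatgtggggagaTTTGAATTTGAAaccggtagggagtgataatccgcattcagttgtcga
ASPM: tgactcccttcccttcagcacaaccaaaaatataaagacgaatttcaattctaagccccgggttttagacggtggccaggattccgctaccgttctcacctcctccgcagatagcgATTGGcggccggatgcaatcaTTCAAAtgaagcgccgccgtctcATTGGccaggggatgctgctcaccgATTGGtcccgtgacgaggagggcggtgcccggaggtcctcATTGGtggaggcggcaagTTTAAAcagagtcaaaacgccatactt
DLGAP5: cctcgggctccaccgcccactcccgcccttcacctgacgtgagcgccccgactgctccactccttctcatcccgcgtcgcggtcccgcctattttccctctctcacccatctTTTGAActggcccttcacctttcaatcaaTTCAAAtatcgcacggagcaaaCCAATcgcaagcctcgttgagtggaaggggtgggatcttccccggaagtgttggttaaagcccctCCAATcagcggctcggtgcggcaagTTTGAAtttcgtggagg
The HMMR promoter has TTTGAA in tandem at positions -28 and -22 from the start. In ASPM the CHR letters, on either strand, lie at -113 and -7, and in DLGAP5 at -138, -109 and 4.

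Of the 55 genes, 45 had an entry in the RefSeq promoter table, which spans 300 bases, 250 before and 50 after the start. The CHR letters occurred in 26 of 45 member promoters (57.8%), against 24.3% of 27305 genes in the table. CCAAT occurred in 32 of 45 (71.1%), against 35.7%, and both together in 19 of 45 (42.2%), against 9.49%. The E2F letters TTTCCCGC, TTTGGCGC, TTTCGCGC and TTTGCCGC, searched on both strands, occurred in 4 of 45 (8.89%), against 3.33%. CHR and CCAAT letters can share an end base, and CCAATTGG counts on both strands. These are matches of letters and not bound sites.

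Before the groups are compared, the arrays need a description, because the arrays numbered 1 in both groups stood apart for these genes. Over the 53 genes, the median log2 expression was 7.73, 8.35 and 8.48 in 3D replicates 1, 2 and 3, against 7.52, 8.03 and 8.39 in suspension replicates 1, 2 and 3. Averaged over both groups, 47 of 53 genes (88.7%) had their lowest level in replicate 1, against 37.1% of all genes. In the plot of all members by array, the 2 columns numbered 1 were the low ones in most rows. In CENPC, CENPH and CENPK, 3D replicate 1 lay above every suspension array, though CENPH and CENPK still had their lowest mean over both groups in replicate 1. The T cell markers checked the labelled cell type: all 13 were measured, with a median mean level of 9.35, while 31 measured markers of other cell types had a median of 4.24 and a maximum of 8.28, for CD79A. The array medians were 9.06 to 9.37 for the T cell markers and 4.15 to 4.45 for the others, and their part in the results below was not tested.

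**Figure D1:**
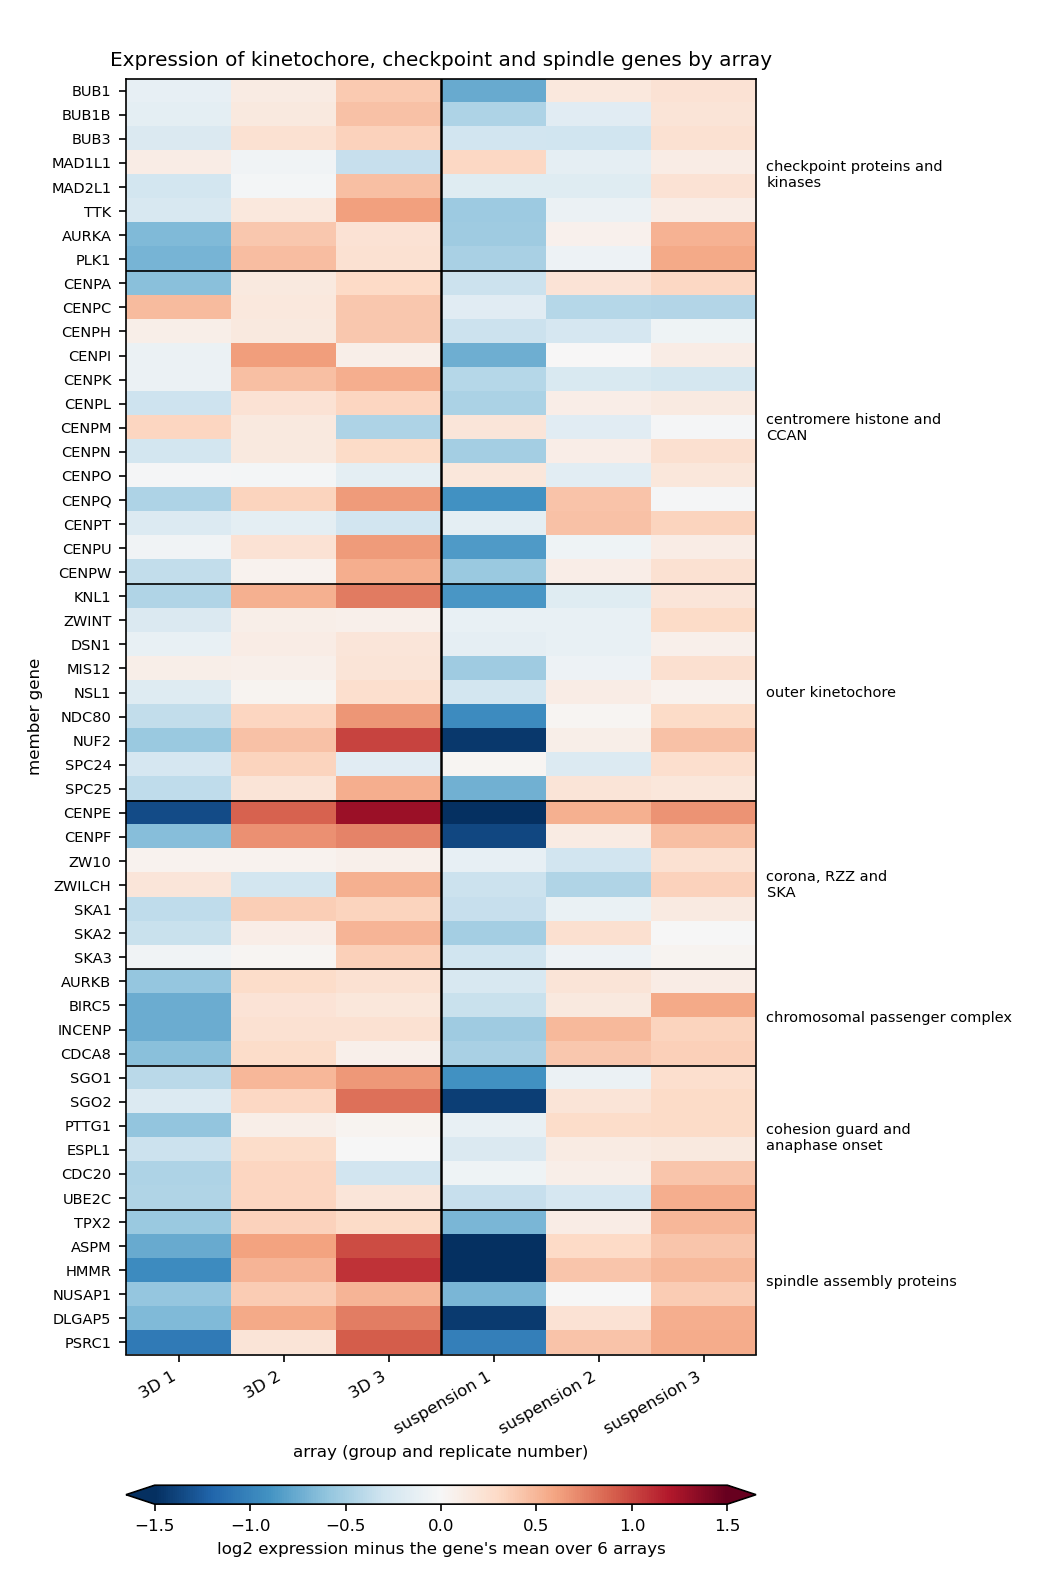
Log2 expression of the 53 measured genes (rows, grouped by role) on the 6 arrays (columns, 3D left of suspension), as the difference from each gene's mean over 6 arrays, with red above and blue below that mean. Replicate 1 of both groups is mostly blue, and 47 of 53 genes had their lowest mean over both groups in replicate 1.

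A test of the replicate number itself was made with limma, with group and replicate number as terms and a moderated F test adjusted by Benjamini-Hochberg over all genes. It called 19 of the 53 genes (35.8%) at an adjusted p under 0.05, against 2.98% of all genes. All 19 had their lowest mean in replicate 1, while 1.67% of all genes were called with the lowest mean there, 0.481% with it in replicate 2 and 0.825% with it in replicate 3. Set against replicate 1, 16 genes were called higher in replicate 2 (1.2% of all genes) and 0 lower (1.03%), and in replicate 3 limma called 24 higher (2.54%) and 0 lower (2.05%). At an unadjusted p under 0.05 the F test gave 37 members (17.6% of all genes). Between replicates 3 and 2, limma called 0 members and 0% of all genes, with 3 members at an unadjusted p under 0.05 (5.3% of all genes). The range of the 3 replicate-number means had a median of 0.75 over the members, against 0.30 over all genes, and reached 1 log2 unit or more in 14 members (26.4%), against 1.98% of all genes.

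This result rested on the 2 arrays numbered 1. Without both, limma called 0 members and 0 genes, with 3 members and 1064 genes at an unadjusted p under 0.05. Without the 3D array numbered 1 it called 9 members (17%), against 1.81% of all genes, and without the suspension array numbered 1 it called 8 (15.1%), against 1.2%.

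Between 3D and suspension, no member passed the test. limma without a block called 0 members and 0% of all genes in either direction at an adjusted p under 0.05. At an unadjusted p under 0.05 it gave 3 higher members, CENPC, CENPH and CENPK (5.9% of all genes were higher), and 1 lower member, CENPT (3.97% lower). These 3 were also the only members whose 3D arrays all lay above all suspension arrays, against 8.28% of all genes, and 0 members lay wholly below, against 8.03%. The median log2 difference, 3D minus suspension, was 0.18 over the members, against -0.02 over all genes. It was above 0 in 38 of 53 members (71.7%), against 47.4% of all genes. Without the suspension array numbered 1, the median of the members was -0.05 and 21 of 53 were above 0 (39.6%), against 50.8% of all genes. That setting keeps the 3D array numbered 1 without its same-numbered partner. Without both arrays numbered 1, the median was 0.17 in the fit with the replicate number as a block, and 41 of 53 members were above 0 (77.4%), against 50.7% of all genes.

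Set side by side by replicate number, 23 members were higher in 3D in all 3 pairs (20.3% of all genes) and 5 were lower in all 3 (19.8%). The 5 were CENPA, CENPT, INCENP, CDCA8 and PTTG1. The median difference of the members was 0.17, 0.23 and 0.19 within pairs 1, 2 and 3. When replicate number entered limma as a block over all genes, it still called 0 members, against 0.0905% of all genes higher and 0% lower, with 16 members higher (10% of all genes) and 1 lower (7.36%) at an unadjusted p under 0.05. With the same block and only the 8342 genes of mean 6 or more, called the filtered paired fit below, 14 of 51 members were higher in 3D (10.6% of those genes) and 0 were lower (3.78%). The 14 were CENPC, CENPK, CENPH and CENPU of the CCAN, KNL1, NUF2 and NDC80 of the outer kinetochore, CENPE and CENPF of the corona, SGO1 and SGO2, and ASPM, DLGAP5 and HMMR of the spindle. Without pair 1 this fit called 3 members of 51 (5.88%), CENPC, CENPK and KNL1, against 5.49% of its genes in either direction. Without pair 3 it called 5 (9.8%), CENPC, CENPF, CENPI, NUF2 and SGO2, against 4.87%. Without pair 2 it called 15 (29.4%), against 17.5%, of which 14 were higher and 1, CDC20, was lower. The range between replicate numbers exceeded the group difference in 49 of 53 members, against 72.6% of all genes.

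**Figure D2:**
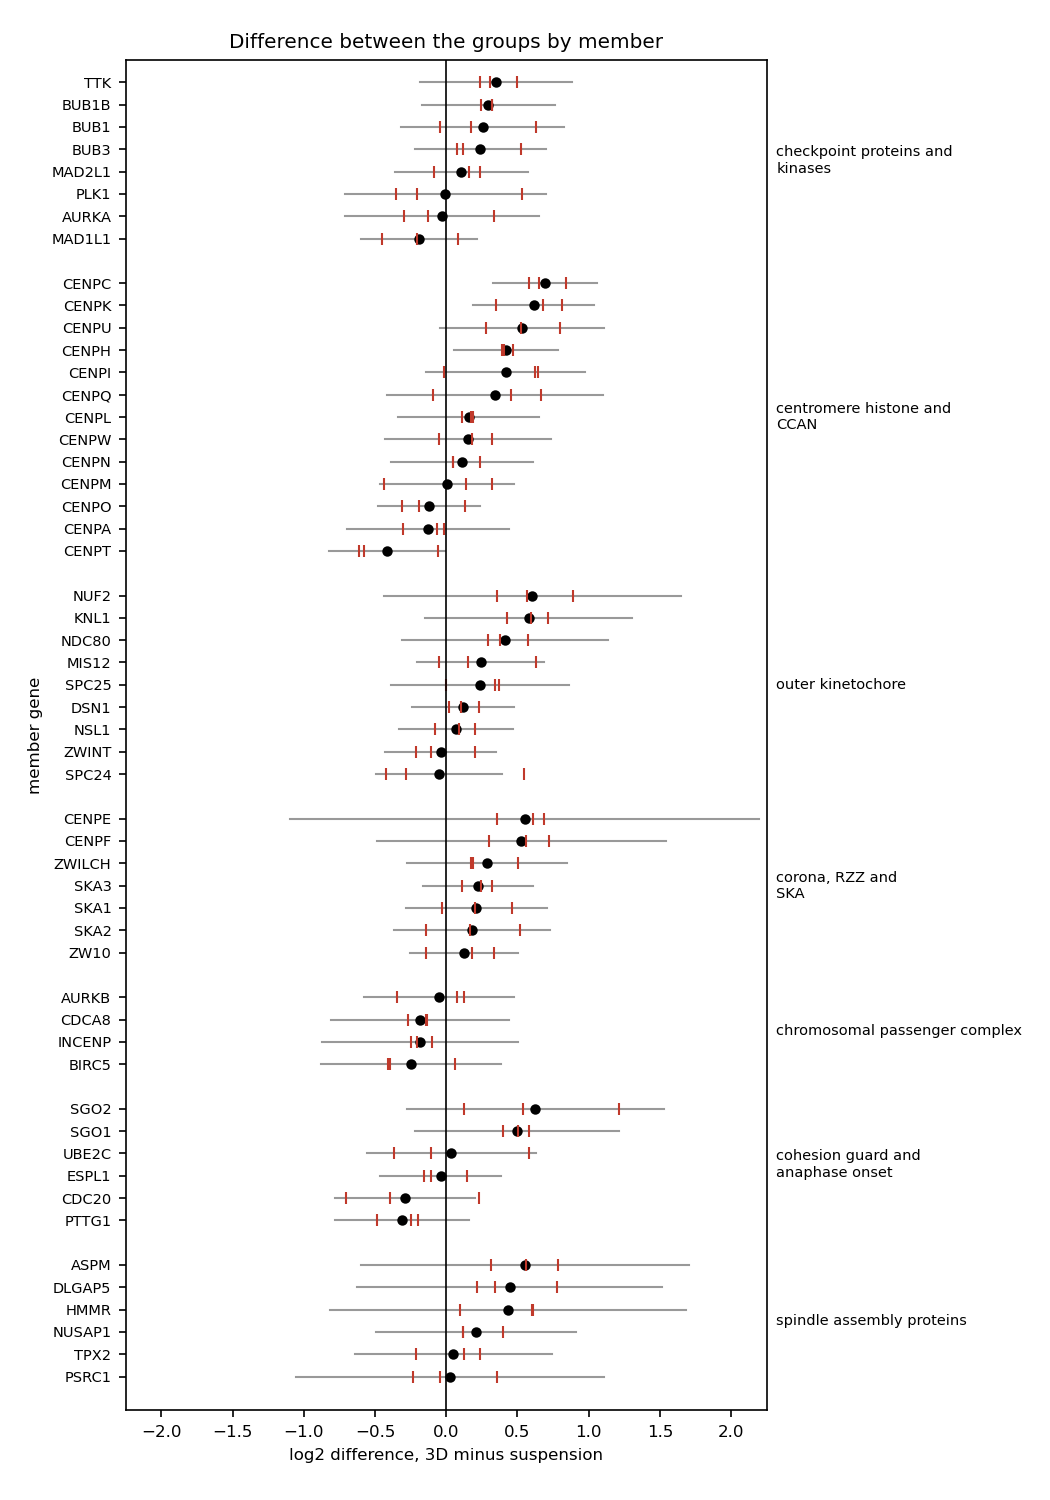
Log2 difference, 3D minus suspension, of each measured gene by role (black points), with limma's 95% confidence interval without a block (grey lines) and the differences within the 3 same-numbered pairs (red ticks). 38 of 53 points lie above 0, and CENPC has the highest at 0.69.

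No gene among the checkpoint proteins and kinases passed the test between the groups in any fit that was run. Of 8 genes, 5 had a difference above 0 and 3 had the higher 3D array in each pair. By replicate number, the limma F test over all genes called 1, AURKA, and 7 had an unadjusted p under 0.05. With a minimum mean of 6 it also called PLK1, TTK, BUB1, BUB1B and MAD2L1 (adjusted p = 0.000771, 0.00547, 0.00689, 0.0220 and 0.0337). A trended prior added the same genes. Values below are log2 expression, given for replicates 1, 2 and 3 of each group in that order. TTK, the kinase MPS1 that starts checkpoint signalling, had 8.99, 9.39 and 9.84 in 3D, against 8.68, 9.15 and 9.35 in suspension. BUB1B, the BUBR1 subunit of the mitotic checkpoint complex, had 8.87, 9.17 and 9.46 in 3D, against 8.55, 8.85 and 9.21 in suspension. In both genes the groups overlapped and the 3D array was the higher of each pair, by 0.35 ± 0.24 (SE) for TTK with a limma adjusted p of 0.633 and by 0.30 ± 0.21 for BUB1B with 0.649. These were 0.16 and 0.14 without the suspension array numbered 1, and 0.56 and 0.44 without the 3D array numbered 1.

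BUB3, which docks BUB1 and BUBR1 on KNL1, had 10.33, 10.77 and 10.89 in 3D, against 10.25, 10.24 and 10.78 in suspension. BUB1, the kinase that marks centromeric chromatin for shugoshin, had 8.26, 8.50 and 8.77 in 3D, against 7.62, 8.54 and 8.60 in suspension. MAD2L1, the MAD2 protein that holds CDC20, had 7.92, 8.17 and 8.64 in 3D, against 8.0, 8.0 and 8.41 in suspension. The 3 genes had overlapping groups, and BUB1 was lowest on the suspension array numbered 1. AURKA, the Aurora A kinase of spindle poles, had 8.63, 9.69 and 9.51 in 3D, against 8.75, 9.36 and 9.81 in suspension. PLK1, the Polo-like kinase of mitotic entry, had 9.80, 10.95 and 10.72 in 3D, against 10.0, 10.42 and 11.06 in suspension. AURKA had a range of 0.97 between replicate numbers (limma F test, adjusted p = 0.0379) and PLK1 one of 0.99 (adjusted p = 0.0609), while their group differences had adjusted p values of 0.982 and 0.997. MAD1L1, the partner of MAD2, had its lowest mean in replicate 3 and a difference of -0.19 ± 0.18.

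The CCAN held the members that differed most between the groups relative to their spread. Of 13 measured genes, counted with the histone CENPA, 10 had a difference above 0 and 6 were higher in 3D in every pair. CENPC, which links CENP-A nucleosomes to the outer kinetochore, had 8.08, 7.76 and 8.0 in 3D, against 7.43, 7.18 and 7.16 in suspension. The 3D arrays all lay above the suspension arrays, and replicate 1 was not the low one. The log2 difference was 0.69 ± 0.17 (SE), or 1.61-fold, with a limma adjusted p of 0.359 without a block, 0.0802 with the block and 0.00238 in the filtered paired fit. CENPK had 7.81, 8.35 and 8.45 in 3D, against 7.47, 7.67 and 7.63 in suspension. CENPH had 6.89, 6.95 and 7.21 in 3D, against 6.48, 6.56 and 6.75 in suspension. These 2 neighbours in the CENP-H/I/K/M subcomplex also had groups that did not overlap, with differences of 0.61 ± 0.19 for CENPK and 0.42 ± 0.16 for CENPH. Their adjusted p values were 0.399 and 0.460 without a block and 0.00573 and 0.0369 in the filtered paired fit.

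CENPI, of the same subcomplex, had 7.05, 7.76 and 7.23 in 3D, against 6.40, 7.14 and 7.24 in suspension. CENPM, also of that subcomplex, had a difference of 0.005 ± 0.21, was lower in 3D in pair 3 and had its lowest mean in replicate 3. CENPU, a subunit of the CENP-O/P/Q/U/R subcomplex that receives PLK1, had 8.78, 9.05 and 9.46 in 3D, against 7.98, 8.76 and 8.94 in suspension. CENPQ, its partner, had 5.96, 6.75 and 7.06 in 3D, against 5.51, 6.85 and 6.40 in suspension. CENPU was higher in 3D in every pair, by 0.53 ± 0.26 over all arrays (filtered paired fit, adjusted p = 0.0134). It differed by 0.24 without the suspension array numbered 1 and by 0.69 without the 3D array numbered 1. CENPI and CENPQ were higher in 2 of 3 pairs. CENPQ was the CCAN gene called by replicate number, with a range of 1.06 and an adjusted p of 0.0264.

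CENPT, the second link to the outer kinetochore, was the member with the most negative difference. It had 4.98, 5.04 and 4.90 in 3D, against 5.03, 5.61 and 5.51 in suspension, a difference of -0.42 ± 0.18 with an adjusted p of 0.505. Its 3D arrays were the lower ones of each pair, but suspension replicate 1 overlapped with them. CENPW, its histone-fold partner, had 7.56, 7.98 and 8.48 in 3D, against 7.38, 8.03 and 8.16 in suspension. CENPA, the histone variant itself, had 6.71, 7.49 and 7.64 in 3D, against 7.02, 7.55 and 7.66 in suspension. CENPA was slightly lower in 3D in every pair and CENPW in 1 of 3, with groups that overlapped in both. CENPN, which reads the CENP-A nucleosome, had 8.46, 8.89 and 9.02 in 3D, against 8.23, 8.84 and 8.97 in suspension. CENPL, its partner, had 6.96, 7.48 and 7.60 in 3D, against 6.79, 7.37 and 7.41 in suspension. Both were higher in 3D in every pair by less than their range between replicate numbers, which was 0.66 for CENPN and 0.63 for CENPL. CENPO had the smallest range of all members, at 0.17. CENPT, with PSRC1, was a member with a mean below 6, so it was not in the filtered fit. Its mean of 5.18 lay above the median of the markers of other cell types, 4.24. Their maximum of 8.28 also exceeded the means of many other members.

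In the outer kinetochore, 7 of 9 measured genes had a difference above 0 and 4 were higher in 3D in every pair. The 4 called by replicate number were KNL1, NDC80, NUF2 and SPC25. KNL1, the scaffold that docks the BUB proteins, had 7.40, 8.39 and 8.63 in 3D, against 6.98, 7.67 and 8.03 in suspension. NUF2, the NDC80 complex's coiled-coil partner at the microtubule end, had 7.36, 8.36 and 8.93 in 3D, against 6.47, 8.0 and 8.36 in suspension. NDC80 itself, which contacts the microtubule, had 8.18, 8.87 and 9.21 in 3D, against 7.61, 8.58 and 8.84 in suspension. In the 3 genes the arrays numbered 1 were the lowest of their group, and the 3D array was the higher of each pair. The ranges between replicate numbers were 1.14 for KNL1 (limma F test, adjusted p = 0.0156), 1.73 for NUF2 (adjusted p = 0.00211) and 1.13 for NDC80 (adjusted p = 0.0158). The group differences were 0.58 ± 0.33, 0.61 ± 0.47 and 0.41 ± 0.33 (SE) in the same order, with adjusted p values of 0.575, 0.677 and 0.682 without a block and 0.00729, 0.00666 and 0.0421 in the filtered paired fit. The differences were 0.29 for KNL1, 0.035 for NUF2 and 0.046 for NDC80 without the suspension array numbered 1. They were 0.95, 1.03 and 0.70 in the same order without the 3D array numbered 1.

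The inner dimer of the NDC80 complex, SPC24 and SPC25, binds the MIS12 complex and CENP-T. SPC25 had 7.04, 7.61 and 7.96 in 3D, against 6.70, 7.61 and 7.59 in suspension. Its range between replicate numbers was 0.90 (limma F test, adjusted p = 0.0409), and pair 2 had the same value in both groups to 2 decimals. SPC24 had 7.13, 7.71 and 7.21 in 3D, against 7.41, 7.17 and 7.63 in suspension, so it did not follow SPC25 by replicate number, with a range of 0.17. The MIS12 complex genes DSN1, MIS12 and NSL1 had ranges of 0.26, 0.44 and 0.39, and ZWINT, a KNL1 partner, 0.34. None of these 4 was called by either test.

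The corona held the member with the widest range between replicate numbers, CENPE. All 7 genes of the corona, the ZW10 complex and the SKA complex had a difference above 0, 4 of them in every pair. Of these, CENPE and CENPF were called by replicate number. CENPE, the plus-end kinesin that carries chromosomes to the metaphase plate, had 7.27, 9.50 and 9.90 in 3D, against 6.58, 9.15 and 9.30 in suspension. CENPF, a farnesylated protein of the corona, had 8.70, 10.02 and 10.09 in 3D, against 7.98, 9.46 and 9.79 in suspension. For CENPE, both arrays numbered 1 lay more than 1 log2 unit below the other 4, and the range between replicate numbers was 2.67, or 6.37-fold (limma F test, adjusted p = 8.80e-05). For CENPF the range was 1.60 (adjusted p = 0.00211). Both were also higher in 3D in each pair, by 0.55 ± 0.75 for CENPE and 0.53 ± 0.46 for CENPF, with adjusted p values of 0.823 and 0.714 without a block and 0.00976 and 0.0133 in the filtered paired fit. Without the suspension array numbered 1, the difference was -0.33 for CENPE and -0.021 for CENPF. Without the 3D array numbered 1, it was 1.36 and 0.98. Either removal leaves the other low array numbered 1 without its partner.

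The SKA complex, which tracks microtubule ends with NDC80, and the ZW10 complex, which brings dynein, had narrower ranges between replicate numbers. SKA3 had 7.96, 8.05 and 8.38 in 3D, against 7.72, 7.94 and 8.06 in suspension. SKA1 had 7.0, 7.76 and 7.72 in 3D, against 7.04, 7.29 and 7.52 in suspension. SKA2 had 9.52, 9.95 and 10.36 in 3D, against 9.35, 10.09 and 9.84 in suspension. SKA3 was higher in 3D in every pair, while SKA1 and SKA2 were higher in 2 of 3 pairs. ZWILCH had 6.38, 5.92 and 6.74 in 3D, against 5.88, 5.75 and 6.55 in suspension, with replicate 2 as its lowest number. ZW10 had 7.62, 7.61 and 7.64 in 3D, against 7.43, 7.28 and 7.78 in suspension. None of these 5 genes was called by either test over all genes without a trended prior. With a minimum mean of 6, the limma F test called SKA1, SKA2 and ZWILCH by replicate number (adjusted p = 0.0225, 0.0110 and 0.00308). It also called these 3 over all genes with a trended prior (adjusted p = 0.0421, 0.0133 and 0.0264).

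The chromosomal passenger complex was the role group with no difference above 0 over all 6 arrays. It corrects wrong attachments through the Aurora B kinase, AURKB, held by INCENP, survivin (BIRC5) and borealin (CDCA8). BIRC5 had 7.08, 8.03 and 8.0 in 3D, against 7.49, 7.97 and 8.39 in suspension. CDCA8 had 7.73, 8.63 and 8.44 in 3D, against 7.87, 8.76 and 8.71 in suspension. INCENP had 7.71, 8.69 and 8.68 in 3D, against 7.91, 8.94 and 8.78 in suspension. The groups overlapped in all 3, with differences of -0.25 ± 0.29, -0.18 ± 0.28 and -0.18 ± 0.31 (SE) in the same order and limma adjusted p values of 0.792, 0.848 and 0.866. CDCA8 and INCENP were lower in 3D in every pair. AURKB had 7.07, 7.92 and 7.88 in 3D, against 7.41, 7.85 and 7.76 in suspension, lower in 3D in pair 1 only. By replicate number, BIRC5, CDCA8 and INCENP were called, with ranges of 0.91, 0.90 and 0.999 and adjusted p values of 0.0458, 0.0307 and 0.0180. With a minimum mean of 6 the limma F test called AURKB too (adjusted p = 0.0115). Without the 3D array numbered 1, all 4 genes lay above 0, with differences of 0.063 for BIRC5, 0.086 for CDCA8, 0.14 for INCENP and 0.23 for AURKB. Without the suspension array numbered 1, they were -0.48, -0.47, -0.50 and -0.18 in the same order. Without the suspension array numbered 2, INCENP and AURKB were at 0.012 and 0.037.

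The genes of cohesion and anaphase onset comprise the guards of cohesin and the machinery that ends cohesion. SGO1, the shugoshin that keeps centromeric cohesin from being removed, had 8.28, 9.17 and 9.33 in 3D, against 7.77, 8.59 and 8.93 in suspension. SGO2, its relative, had 6.22, 6.74 and 7.25 in 3D, against 5.01, 6.61 and 6.71 in suspension. Both were higher in 3D in every pair, by 0.50 ± 0.32 for SGO1 and 0.63 ± 0.41 for SGO2, with adjusted p values of 0.619 and 0.617 without a block and 0.0163 and 0.0114 in the filtered paired fit. Without the suspension array numbered 1 the difference was 0.16 for SGO1 and 0.074 for SGO2, whose difference was widest in pair 1. Without the 3D array numbered 1 it was 0.82 for SGO1 and 0.88 for SGO2. By replicate number SGO1 had a range of 1.11 (limma F test, adjusted p = 0.0156) and SGO2 one of 1.37 (adjusted p = 0.0207).

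The genes that act when cohesion ends had differences near 0 or below it, and none passed the test on all 6 arrays. CDC20 was called lower in 3D in 1 setting, the filtered paired fit without pair 2, with a difference of -0.55 and an adjusted p of 0.0116. PTTG1, the securin that holds separase, had 7.62, 8.29 and 8.25 in 3D, against 8.10, 8.49 and 8.50 in suspension. CDC20, the activator of the anaphase-promoting complex, had 9.0, 9.78 and 9.18 in 3D, against 9.40, 9.55 and 9.88 in suspension. UBE2C, the ubiquitin-conjugating enzyme of that complex, had 6.98, 7.76 and 7.62 in 3D, against 7.09, 7.18 and 7.98 in suspension. PTTG1 was lower in 3D in every pair, with a difference of -0.31 ± 0.21 (limma adjusted p = 0.630), and CDC20 in 2 of 3 pairs, with one of -0.29 ± 0.22 (adjusted p = 0.670). PTTG1 has near-identical gene copies that its probes may also read. ESPL1, separase, had a difference of -0.04 ± 0.19, with 7.34, 7.93 and 7.65 in 3D, against 7.44, 7.78 and 7.81 in suspension.

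The spindle assembly proteins differed by replicate number in all 6 genes, each with a range above 1 log2 unit. HMMR, the RHAMM protein of spindle poles, had 6.12, 7.58 and 8.15 in 3D, against 5.51, 7.48 and 7.55 in suspension. ASPM, which gathers microtubule minus ends at the poles, had 7.71, 9.07 and 9.44 in 3D, against 6.92, 8.76 and 8.88 in suspension. DLGAP5, the HURP protein that stabilises fibres near chromosomes, had 8.30, 9.52 and 9.72 in 3D, against 7.52, 9.18 and 9.50 in suspension. In each, both arrays numbered 1 lay below the other 4, as they did for CENPE. The ranges were 2.03, 1.84 and 1.71, or 4.08-, 3.59- and 3.26-fold, with limma F test adjusted p values of 0.000876, 0.00106 and 0.00210. The 3D array was the higher of each pair, and the mean differences were 0.44 ± 0.57, 0.55 ± 0.52 and 0.45 ± 0.48 (SE), with adjusted p values of 0.815, 0.735 and 0.776 without a block and 0.0400, 0.0108 and 0.0360 in the filtered paired fit. Without the suspension array numbered 1 the differences were -0.23, -0.079 and -0.16, and without the 3D array numbered 1 they were 1.02, 1.07 and 0.89.

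TPX2, which activates Aurora A at the spindle, had 8.23, 9.14 and 9.08 in 3D, against 8.10, 8.90 and 9.29 in suspension. NUSAP1, which bundles microtubules near chromatin, had 9.18, 10.14 and 10.26 in 3D, against 9.06, 9.74 and 10.14 in suspension. PSRC1, a microtubule plus-end protein, had 3.90, 5.16 and 5.87 in 3D, against 3.94, 5.39 and 5.52 in suspension. The ranges between replicate numbers were 1.02, 1.08 and 1.77, with adjusted p values of 0.0237, 0.0189 and 0.00208 (limma F test). NUSAP1 was higher in 3D in every pair, TPX2 in 2 of 3 and PSRC1 in 1 of 3, and the values of PSRC1 reach down to the level of markers of other cell types.

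**Figure D3:**
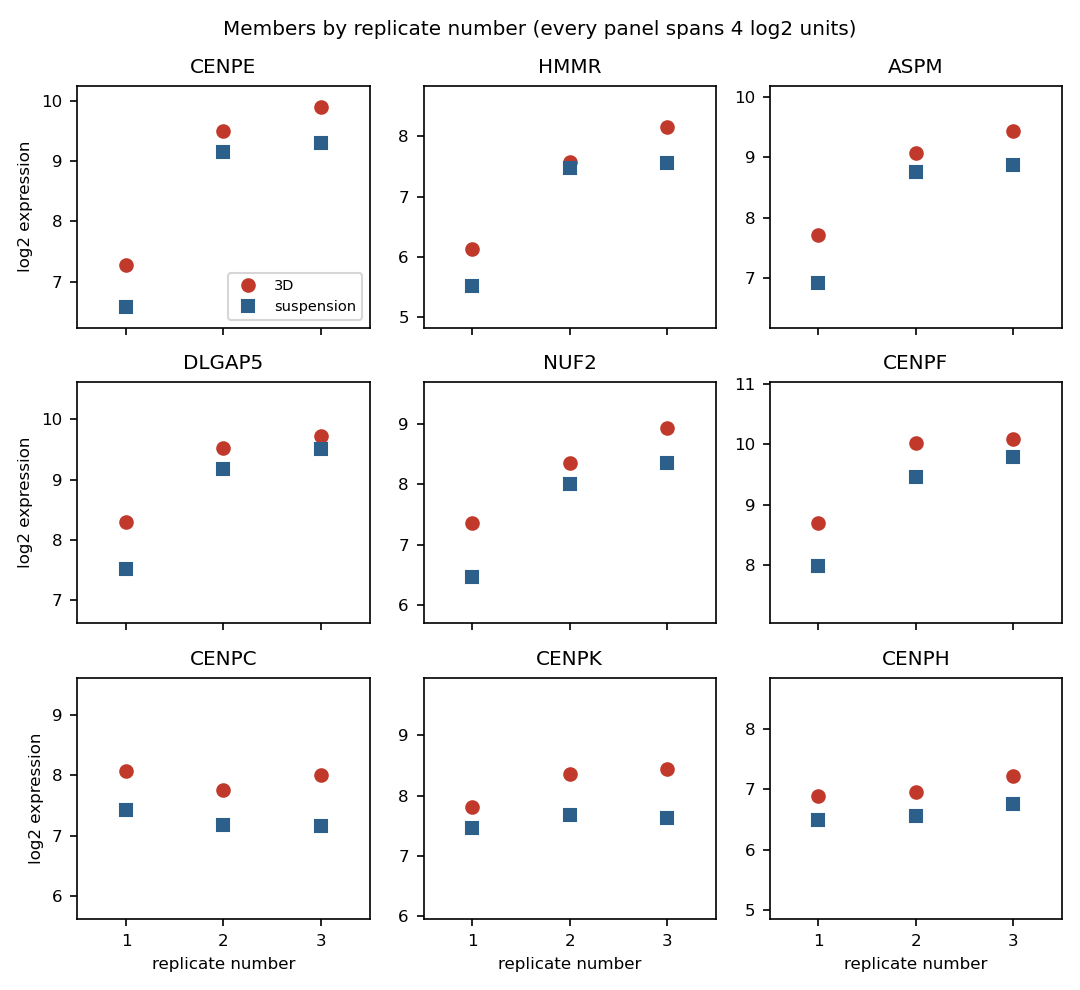
Log2 expression of 9 members by replicate number, with circles for 3D and squares for suspension, each panel spanning 4 log2 units. CENPE, HMMR, ASPM, DLGAP5, NUF2 and CENPF are low in both groups at number 1, whereas CENPC, CENPK and CENPH have every 3D circle above every suspension square.

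Other genes of mitosis were set beside the members in 8 lists of 142 genes, of which 131 were measured. By replicate number, the limma F test called 13 of 17 mitotic kinesin and cytokinesis genes, 6 of 14 genes of mitotic cyclins, CDK1 and its phosphatases, 3 of 14 other centromere and kinetochore genes and 2 of 17 cohesin and condensin genes, against the 2.98% of all genes. All of these were lowest in replicate 1. It called 0 of 19 genes of the anaphase-promoting complex, 0 of 11 augmin and gamma-tubulin genes, 0 of 15 regulators of the DREAM and FOXM1 complexes and 0 of 24 genes of G1/S and S phase. At an unadjusted p under 0.05 there were 7, 2, 3 and 2 in the same order, against 17.6% of all genes. The median range between replicate numbers was 1.11 for the kinesin list and 0.85 for the cyclin list, against 0.21 for the S phase list and 0.30 for all genes. KIF14, a kinesin of the midbody, had 1.91, the highest in these lists, with 6.42, 7.99 and 8.53 in 3D, against 6.0, 7.48 and 7.71 in suspension.

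**Figure D4:**
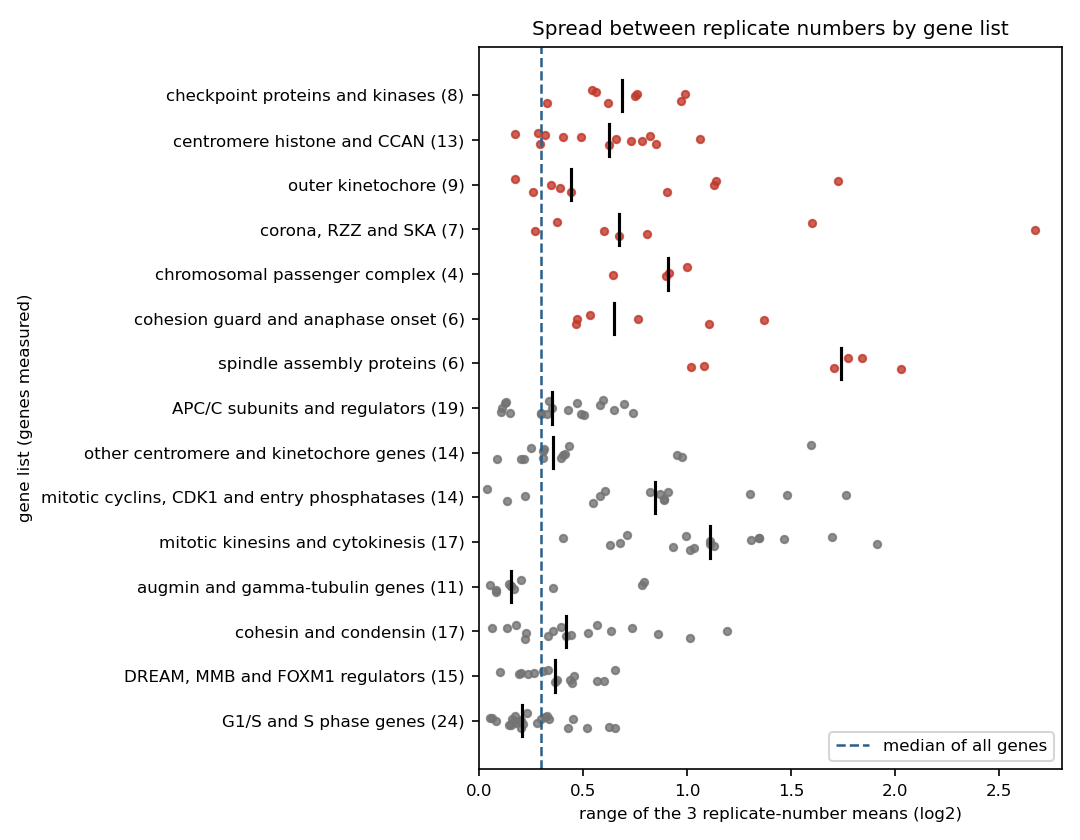
Range of the 3 replicate-number means in log2 units for each gene (points) by list, with member role groups in red, other lists in grey, list medians as black bars and the median of all genes as a dashed line. Spindle assembly proteins (median 1.74) and mitotic kinesins (median 1.11) lie farthest to the right.

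Between the groups, limma called 0 of the 131 genes without a block. At an unadjusted p under 0.05, 12 were higher (5.9% of all genes) and 1 lower (3.97%). With the block it also called 0, against 0.0905% of all genes higher and 0% lower. In the filtered paired fit, where 10.6% of genes were higher and 3.78% lower, 25 genes of these lists were higher in 3D and 0 were lower. The 25 held 8 of 17 kinesin and cytokinesis genes (47.1%) and 7 of 17 cohesin and condensin genes. KNTC1, the ROD subunit that forms the RZZ complex with ZW10 and ZWILCH, had 8.69, 8.80 and 8.60 in 3D, against 7.62, 7.95 and 7.96 in suspension. Its groups did not overlap, and the difference was 0.86 ± 0.16 (SE), with an adjusted p of 0.330 without a block and 0.000522 in the filtered paired fit. CLASP2, a kinetochore microtubule stabiliser, had 7.67, 7.54 and 7.27 in 3D, against 6.88, 6.87 and 6.67 in suspension. NIPBL, the cohesin loader, had 8.17, 8.09 and 8.38 in 3D, against 7.17, 8.02 and 7.84 in suspension. CLASP2 differed by 0.68 ± 0.17 and NIPBL by 0.54 ± 0.22, with adjusted p values of 0.359 and 0.485 without a block.

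Of the remaining named genes of these lists, the differences were above 0 for ANAPC10 (0.40 ± 0.17), ANAPC7 (0.38 ± 0.17), WEE1 (0.41 ± 0.17), KIF15 (0.54 ± 0.30), KIF20B (0.51 ± 0.29), NEDD1 (0.53 ± 0.25), PDS5B (0.50 ± 0.18), RBL1 (0.67 ± 0.17), POLA1 (0.75 ± 0.16) and CLSPN (0.52 ± 0.19). They were below 0 for PKMYT1 (-0.47 ± 0.23), TUBGCP2 (-0.47 ± 0.16) and E2F4 (-0.35 ± 0.16). WEE1 and PKMYT1, the 2 kinases that hold CDK1 inactive, thus had opposite signs, and neither passed the test.

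The promoter letters can be read against the spread between replicate numbers in the 43 measured members with an entry. The 26 with CHR letters had a median range of 0.841, against 0.673 in the 17 without, and 12 of the 26 and 3 of the 17 were called by replicate number. The 31 with CCAAT had a median of 0.808, against 0.494 in the 12 without, with 12 of the 31 and 3 of the 12 called. HMMR, ASPM and DLGAP5 were picked for holding both, and the layout is not shared by every gene with a wide spread. CENPE had the widest range of all and lacks CCAAT in this window. PSRC1 (1.77) lacks the CHR letters and NUF2 (1.73) lacks CCAAT, both with wider ranges than DLGAP5 (1.71). These are descriptions with no test, and draw nothing about the factors that bind such letters.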

How the data were processed

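RNA of 6 Jurkat samples was labelled with a GeneChip whole-transcript kit, per the labels' protocols. The authors deposited 1 log2 value per probe set and array, from RMA and the Transcriptome Analysis Console, per the submitters' processing notes, whose versions and genome build are not given in the sources used here. Because RMA corrects background and forces the arrays onto one distribution, small differences between dim probe sets shrink and a global shift would not be seen. Array medians were 5.55 to 5.64, values were used as deposited, and 0 further columns of sample values were left out. Of 21448 probe sets, 17709 had 1 gene symbol and 3739 none, and the probe set with the highest mean was kept for each of 17687 genes. The number of arrays limits the precision.

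The members and lists were chosen with earlier results of these data known. Groups were compared with limma 3.58.1 in R 4.3.3 (lmFit and eBayes, two-sided, Benjamini-Hochberg adjustment over all genes, threshold 0.05) without a block, and by alternatives with the replicate number of the titles as a block, a minimum mean of 6, a second quantile normalization, a trended prior, array weights and arrays left out. The numbers were taken to pair the arrays, since deviations from the group means correlated above 0.1 within each number, at 0.521, 0.120 and 0.337 for 1, 2 and 3. Arrays of numbers 2 and 3 also correlated across numbers, at 0.230 and 0.149, both above the value within number 2. These correlations thus set number 1 apart but cannot tell whether numbers 2 and 3 pair as labelled. Replicate number was tested by a moderated F test with group as a term, and the fits were tested on simulated data. Array values are given in full for the 2 members of smallest p and the one of widest range in each role group, those called in a fit on all 6 arrays, the 3 largest and 3 smallest differences and the 2 highest and lowest means, and for 3 further genes chosen after their values were seen, SPC24, ZW10 and ESPL1. Of each other list the 2 genes of smallest p are named, and KIF14 was chosen after its value was seen. Motif letters were searched in Python 3.11.15, and plots drawn with matplotlib 3.10.9.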

Additional observations from a re-analysis of the deposited data

How the results depend on the processing

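The count of members called between 3D and suspension was 0 in all settings tried except those that joined a minimum mean of 6 with the replicate block. So was the count of all genes, except that the block alone gave 16 genes and, with a pair left out, 21 to 150. A minimum mean of 6 with the block gave 14 members and 1199 genes. Left-out pairs in that fit, chosen after seeing the data, gave 3, 15 and 5 members and 458, 1457 and 406 genes without pairs 1, 2 and 3, and a second quantile normalization added to it 11 members and 1075 genes. By replicate number, the counts were 35 of 51 members and 1835 of 8342 genes with a minimum mean of 6. A trended prior gave 36 of 53 members and 1669 of 17687 genes. Without either, they were 19 of 53 members and 527 of 17687 genes, so both settings also raised the share of all genes called. The counts were 0 to 30 members and 0 to 1392 genes with a number left out, 0 being without number 1. With a single array left out, chosen after seeing the data, they were 8 to 27 members and 212 to 1108 genes. The median difference of the members was 0.18, and -0.05 to 0.35 with 1 array left out, the low end without suspension replicate 1 and the high end without 3D replicate 1. The difference of PSRC1 was -0.11 with array weights. Among 26 members followed through the settings, those that turned sign with 1 array left out had ranges of -0.25 to 0.34 in PLK1, -0.48 to 0.063 in BIRC5, -0.47 to 0.086 in CDCA8, -0.030 to 0.66 in CENPQ, -0.021 to 0.98 in CENPF, -0.33 to 1.36 in CENPE, -0.079 to 1.07 in ASPM, -0.16 to 0.89 in DLGAP5, -0.23 to 1.02 in HMMR and -0.48 to 0.56 in PSRC1. Of the passenger complex, INCENP and AURKB also turned, to 0.14 and 0.23 without 3D replicate 1 and to 0.012 and 0.037 without suspension replicate 2. With a pair left out they turned in PLK1, to 0.092 without pair 1 and 0.16 without pair 3, and in PSRC1, to -0.14 without pair 3. No member had another probe set to try. The causes were not tested. What these arrays measure near the floor is limited, since detection flags were not used here.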
